A study of Homo sapiens with 18 samples.

Results

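GCC1, TRIM24, MGAM2, GALNT11 and ESYT2 lie on the distal long arm of human chromosome 7, the arm that also carries CASP2. Their Entrez gene identifiers are 79571, 8805, 93432, 63917 and 57488. In gene order they stand as GCC1, TRIM24, MGAM2, then CASP2, then GALNT11 and ESYT2. These 5 genes were chosen by name for their low levels in CASP2 knockout clones of the OCI-AML2 cell line, out of 5069 distinct sets of values in the deposited table. The values of OCI-AML2 clones against OCI-AML2 parental cells therefore chose the genes, and for these 5 genes that contrast is given as a description without a test. The other contrasts took no part in the choice, although OCI-AML3 parental against OCI-AML2 parental cells and OCI-AML2 clone 2 against clone 1 each use libraries that did.

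The series used RNA sequencing of 2 established cell lines of human acute myeloid leukaemia, OCI-AML2 and OCI-AML3. OCI-AML2 is wild type for NPM1, the gene of nucleophosmin, and OCI-AML3 carries the mutated form labelled NPM1c+, whose product is placed in the cytoplasm. The 6 groups of 3 libraries, 18 in all, were OCI-AML2 parental cells with wild-type caspase-2, OCI-AML2 caspase-2 knockout clones 1 and 2, OCI-AML3 parental cells with wild-type caspase-2, and OCI-AML3 caspase-2 knockout clones 1 and 2. The knockouts were made with CRISPR/Cas9, all cells were untreated, and each clone group is a single clone. The labels do not say whether the 3 libraries of a group came from separate cultures, so p-values measure only the spread between these libraries.

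Values are TPM, transcript abundances scaled for gene length and library size, so levels can be compared between genes. The distinct sets of values sum to between 170100 and 199400 TPM per library, and the number of reads behind them is unknown. The table is itself selected, since 96.5% of the sets pass a log2 ratio of 0.95 in at least 1 of 3 comparisons: the parental lines, OCI-AML2 clone 1, or both clones of OCI-AML3. Shares of called genes are therefore shares of this table. Of 8 myeloid markers, ANPEP and ITGAM have a settled symbol in the table, and their summed level was 0.32 to 0.61 TPM in the OCI-AML2 parental libraries, 1.4 to 2.2 TPM in the OCI-AML2 clones, 27.2 to 32.2 TPM in the OCI-AML3 parental libraries and 57.2 to 70.9 TPM in the OCI-AML3 clones. The T cell marker CD3D was at 0 in the parental libraries of both lines and in the OCI-AML3 clones and at 0.98 to 1.74 TPM in the OCI-AML2 clones. The fibroblast collagen gene COL1A2 was at 0 to 0.02 TPM in OCI-AML2 cells, at 0.06 to 0.25 TPM in OCI-AML3 parental cells and at 1.83 to 3.91 TPM in the OCI-AML3 clones. Markers of B cells, erythroid and epithelial cells are not analysed here. The part that these marker differences have in the values below was not tested.

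Caspase-2 is an initiator protease that cleaves other proteins in cells with DNA damage, mitotic failure or other stress. The distal long arm of chromosome 7 is a region known for loss in myeloid leukaemias, and it carries several chromatin regulators. The 5 genes belong to different pathways. GCC1 encodes a coiled-coil protein with a GRIP domain that sits on the trans-Golgi network. TRIM24 encodes a bromodomain protein that reads histone marks, acts as a cofactor of nuclear receptors and is a ubiquitin ligase for p53. MGAM2 is a paralogue of the starch-digesting brush border enzyme maltase-glucoamylase. GALNT11 encodes an enzyme that starts mucin-type O-glycans by adding N-acetylgalactosamine to serine or threonine. ESYT2 encodes extended synaptotagmin 2, which tethers the endoplasmic reticulum to the plasma membrane and transfers lipids there.

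The promoter table of RefSeq (build GRCh38.p14) held 4 of the 5 genes, all but TRIM24. The 150 bases before the annotated start are shown 5′ to 3′ on the gene's own strand for these 4 genes, as the annotated starts of the genes whose levels are described here. Capitals mark TGACGTCA, the full cAMP response element, and GGGCGG or its reverse complement CCGCCC, the GC box bound by SP1. These motifs were chosen after the sequences had been read. The windows are chr7:127585597-127585746 on the minus strand for GCC1, chr7:158829510-158829659 on the minus strand for ESYT2, chr7:142111568-142111717 on the plus strand for MGAM2 and chr7:152074887-152075036 on the plus strand for GALNT11.
GCC1: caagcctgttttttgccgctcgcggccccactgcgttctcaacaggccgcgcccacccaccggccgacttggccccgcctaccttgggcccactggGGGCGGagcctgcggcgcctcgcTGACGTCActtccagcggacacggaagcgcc
ESYT2: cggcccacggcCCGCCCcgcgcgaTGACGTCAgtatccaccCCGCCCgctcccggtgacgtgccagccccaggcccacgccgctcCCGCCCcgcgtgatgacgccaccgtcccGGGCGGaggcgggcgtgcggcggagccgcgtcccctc
MGAM2: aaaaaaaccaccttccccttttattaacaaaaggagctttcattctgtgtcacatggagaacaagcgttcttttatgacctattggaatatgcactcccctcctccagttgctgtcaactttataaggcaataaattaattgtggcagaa
GALNT11: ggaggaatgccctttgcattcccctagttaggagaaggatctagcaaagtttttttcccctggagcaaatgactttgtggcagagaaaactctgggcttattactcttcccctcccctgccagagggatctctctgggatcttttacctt
GCC1 and ESYT2 have CpG-rich promoters, with 25 and 38 CG dinucleotides in the 250 bases before the start, against a median of 11 over 35116 promoters of the same length. Each of them holds 1 TGACGTCA, a motif that reads the same on both strands and stands in 1.65% of all these promoters. GCC1 has 1 GC box and ESYT2 has 4, counting overlapping matches on both strands, and 42.6% of all promoters hold at least 1. The 250 bases before the starts of MGAM2 and GALNT11 hold 2 and 1 CG dinucleotides and neither motif. CASP2 has 2 annotated starts in the promoter table, with 29 and 2 CG dinucleotides and 4 and 0 GC boxes, and KMT2C, the neighbour of GALNT11, has 48 CG dinucleotides and 15 GC boxes. Neither of these 2 genes holds TGACGTCA. Genes far below their parental level in the OCI-AML2 clones, as given below, thus include KMT2C with a CpG-rich promoter as well as MGAM2 and GALNT11 with CpG-poor ones. These are matches of letters at the annotated start, and which start these cells use was not tested.

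CASP2, the targeted gene, checks the labels. The OCI-AML2 parental libraries read 35.32, 37.29 and 35.57 TPM, those of clone 1 read 3.93, 3.58 and 3 TPM, and those of clone 2 read 5.03, 3.27 and 5.06 TPM. The clone libraries were all far below the parental ones, at 9.72% ± 1.33 and 12.3% ± 2.87 of the parental mean (SD from both groups, n = 3 and 3), and an exact two-sided permutation test gave p = 0.1 for each clone, the smallest p that 3 against 3 libraries allow. The OCI-AML3 parental libraries read 30.11, 28.12 and 28 TPM, those of clone 1 read 26.34, 27.05 and 27.83 TPM, and those of clone 2 read 31.09, 35.39 and 29.82 TPM. Clone 1 lay just below the parental range and clone 2 overlapped it, and neither passed (limma adjusted p = 0.537 and 0.240, exact permutation p = 0.1 and 0.2). After rescaling of the libraries by medians of ratios clone 2 passed as higher (log2 change 0.32, limma adjusted p = 0.00929). The mRNA level does not check the OCI-AML3 labels, since a frameshift need not lower mRNA.

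In the OCI-AML2 clones the 5 genes fell short of the parental level by different amounts. GCC1 and ESYT2 stood at 40.7% to 47.6% of it in both clones. TRIM24 stood at 47.6% in clone 1 and 65.0% in clone 2. MGAM2 was at 1.48% and 2.83%, and GALNT11 was listed at 0 in all 6 clone libraries. In the OCI-AML3 clones only ESYT2 of the 5 was called lower.

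**Figure D1:**
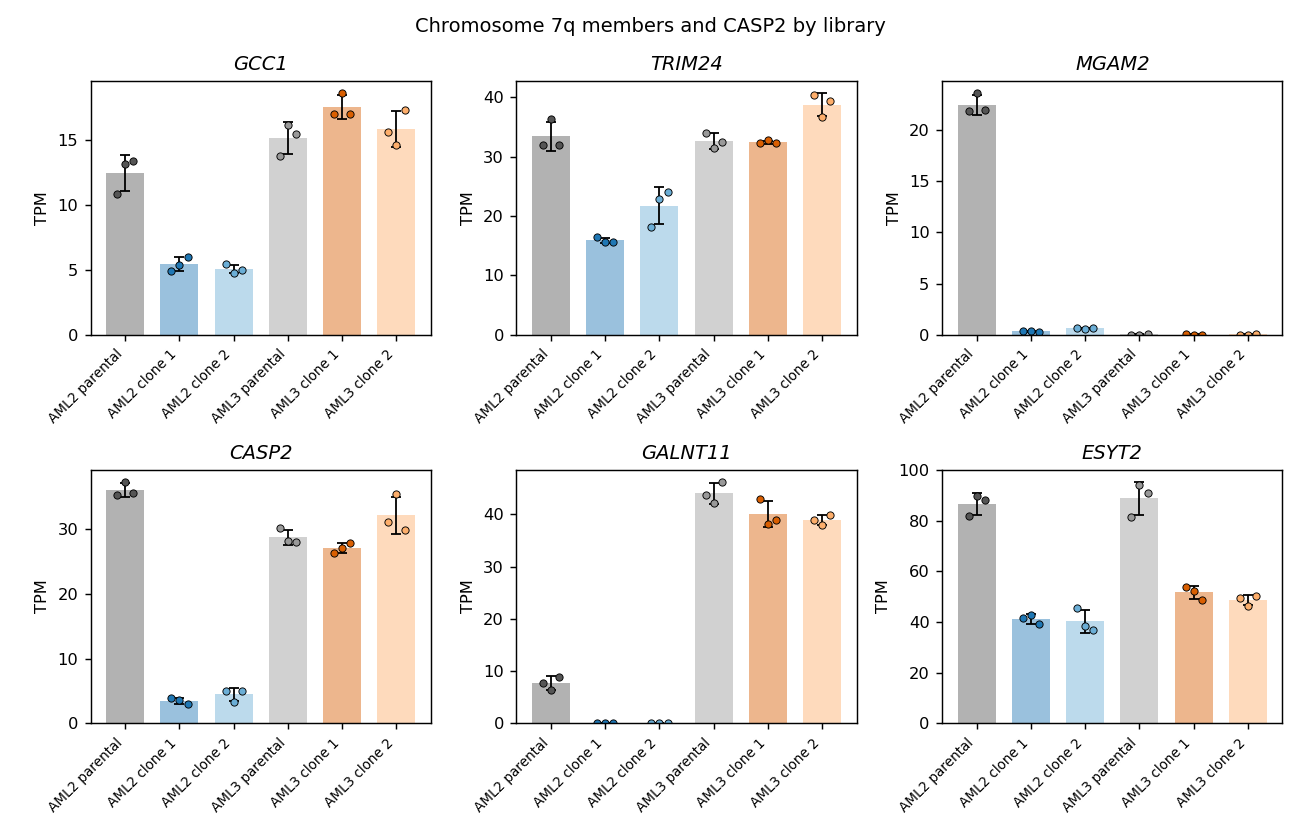
TPM of the 5 genes and of CASP2 in each of the 18 libraries. Points are libraries, bars are group means and error bars are SD (n = 3), and each panel has its own linear axis from 0. The OCI-AML2 clones lie below their parental libraries in every panel, while ESYT2 is the gene whose OCI-AML3 clones, at 46.3 to 54.0 TPM, also lie below theirs, at 81.4 to 94.0 TPM.

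GCC1 was measured at 10.84, 13.1 and 13.37 TPM in OCI-AML2 parental cells, at 4.92, 5.39 and 5.96 TPM in clone 1, and clone 2 had 5.42, 4.77 and 5 TPM. All 6 clone libraries lay below the lowest parental one, and the 2 clones overlapped each other. Clone 1 was at 43.6% ± 6.42 and clone 2 at 40.7% ± 5.26 of the parental mean. In OCI-AML3 it was measured at 13.73, 16.12 and 15.44 TPM in parental cells, at 16.98, 18.59 and 17 TPM in clone 1, and clone 2 had 15.62, 14.6 and 17.32 TPM. Clone 1 lay wholly above the parental libraries but did not pass (log2 change 0.20, SE 0.09, limma adjusted p = 0.0573), and clone 2 overlapped them (log2 change 0.07, adjusted p = 0.554). Both passed as higher after rescaling by medians of ratios (log2 change 0.34 and 0.23, limma adjusted p = 0.00369 and 0.0420). Clone 1 also passed without OCI-AML2 parental replicate 1 (adjusted p = 0.0401), without OCI-AML3 parental replicate 2 (adjusted p = 0.0411) and in a limma fit of only the groups compared (adjusted p = 0.0477).

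TRIM24 was measured at 31.99, 36.3 and 31.9 TPM in OCI-AML2 parental cells, at 16.44, 15.61 and 15.69 TPM in clone 1, and clone 2 had 18.2, 22.87 and 24.09 TPM. The 3 groups did not overlap, with clone 2 between clone 1 and the parental cells. Clone 1 stood at 47.6% ± 3.84 and clone 2 at 65.0% ± 10.5 of the parental mean. In OCI-AML3 it was measured at 34.05, 31.44 and 32.46 TPM in parental cells, at 32.31, 32.74 and 32.26 TPM in clone 1, and clone 2 had 40.33, 36.63 and 39.37 TPM. Clone 1 lay inside the parental range (log2 change -0.01, SE 0.08, limma adjusted p = 0.953), and every clone 2 library lay above every parental one. Clone 2 passed as higher, at 119% ± 7.58 of the parental mean (log2 change 0.24, SE 0.08, limma adjusted p = 0.0160). That call ended without OCI-AML3 parental replicate 2 (adjusted p = 0.0559) and without OCI-AML3 clone 2 replicate 1 (adjusted p = 0.0590), and adjusted p over all alternatives ran from 7.2e-04 to 0.0590.

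MGAM2 was measured at 21.89, 23.62 and 21.92 TPM in OCI-AML2 parental cells, at 0.35, 0.39 and 0.26 TPM in clone 1, and clone 2 had 0.67, 0.59 and 0.65 TPM. The parental libraries stood alone: every other library of the series was below 1 TPM. The clones were at 1.48% ± 0.303 and 2.83% ± 0.223 of the OCI-AML2 parental mean. In OCI-AML3 it was listed at 0, 0 and 0.04 TPM in parental cells, at 0.02, 0 and 0 TPM in clone 1, and clone 2 had 0, 0 and 0.06 TPM. No ratio is given there, and MGAM2 was tested at all only through its 3 OCI-AML2 parental libraries, the only ones at 1 TPM or more. MGAM2 and MGAM are neighbouring paralogues of similar sequence, so reads could be split between them, and how the authors' counting treated such reads is not given in the sources used here. MGAM itself was far lower, at 0.760 ± 0.0954 TPM in OCI-AML2 parental cells, and stood at 1.84 ± 0.242 and 1.39 ± 0.284 TPM in the clones, whose 6 libraries are the only ones in which it reached 1 TPM. A further line of the table printed under MGAM2, with 91.2 to 97.7 TPM in OCI-AML2 parental cells, could not be tied to the gene and was not used.

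GALNT11 was measured at 7.75, 6.45 and 8.96 TPM in OCI-AML2 parental cells and listed at 0 in all 3 libraries of clone 1 and all 3 of clone 2. No fold is given for values listed at 0, and the read depth that would bound them is unknown. In OCI-AML3 it was measured at 43.79, 42.27 and 46.25 TPM in parental cells, at 42.98, 38.24 and 38.98 TPM in clone 1, and clone 2 had 38.87, 38 and 39.98 TPM. Clone 1 overlapped the parental range and clone 2 lay just below it, at 90.8% ± 7.11 and 88.3% ± 4.61 of the parental mean. Neither passed (log2 change -0.14 and -0.17, SE 0.09, limma adjusted p = 0.170 and 0.0788). Clone 2 passed as lower without OCI-AML2 parental replicate 2 (adjusted p = 0.0351), without OCI-AML2 parental replicate 3 (adjusted p = 0.0440) and in a limma fit of only the groups compared (adjusted p = 0.0155). After rescaling, the clone 1 value was 0.01 (adjusted p = 0.934). The values of GALNT11 also stand under ZIC5 in another line, which the order of the OCI-AML3 clone 1 replicates marked as the copy to drop. A further line printed under GALNT11, with 0.02, 0.04 and 0 TPM in OCI-AML2 parental cells, could not be tied to the gene and was not used.

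ESYT2 was the most abundant of the 5, at 81.83, 89.78 and 88.32 TPM in OCI-AML2 parental cells, at 41.55, 42.82 and 39.25 TPM in clone 1, and clone 2 had 45.55, 38.43 and 36.74 TPM. The 6 clone libraries lay well below the parental ones and the 2 clones overlapped, at 47.6% ± 3.12 and 46.4% ± 5.85 of the parental mean. In OCI-AML3 it was measured at 81.41, 93.96 and 91.12 TPM in parental cells, at 53.98, 52.33 and 48.83 TPM in clone 1, and clone 2 had 49.55, 46.28 and 50.13 TPM. Every OCI-AML3 clone library was below every parental one, and both clones passed as lower. Clone 1 was at 58.2% ± 5.23 of the parental mean (log2 change -0.77, SE 0.08, limma adjusted p = 8.4e-08, range over the alternatives 1.4e-08 to 1.5e-04). Clone 2 was at 54.8% ± 4.68 (log2 change -0.85, SE 0.08, limma adjusted p = 2.0e-08, range 3.5e-09 to 1.1e-04).

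Counted over the 5 genes, OCI-AML3 clone 1 had 1 call, ESYT2 lower, in a table where 72.2% of the 4413 tested sets were called in either direction and 41% as lower. OCI-AML3 clone 2 had 2 calls, ESYT2 lower and TRIM24 higher, where 73.1% of the sets were called, 41.5% as lower and 31.6% as higher. ESYT2 was also called lower in both OCI-AML3 clones together, as 38.3% of the sets were. In both comparisons the share of the 5 genes that was called lay below the share of the table, and MGAM2 could hardly be called at its OCI-AML3 level. The 5 genes did not pass the log2 ratio of 0.95 in both OCI-AML3 clones, through which other sets passed the selection. The selection thus in part fixed the lower share, which is no result about the 5 genes. In OCI-AML2 the choice of the genes fixed that all 5 were lower in both clones, and 14.6% of the sets were called so.

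**Figure D2:**
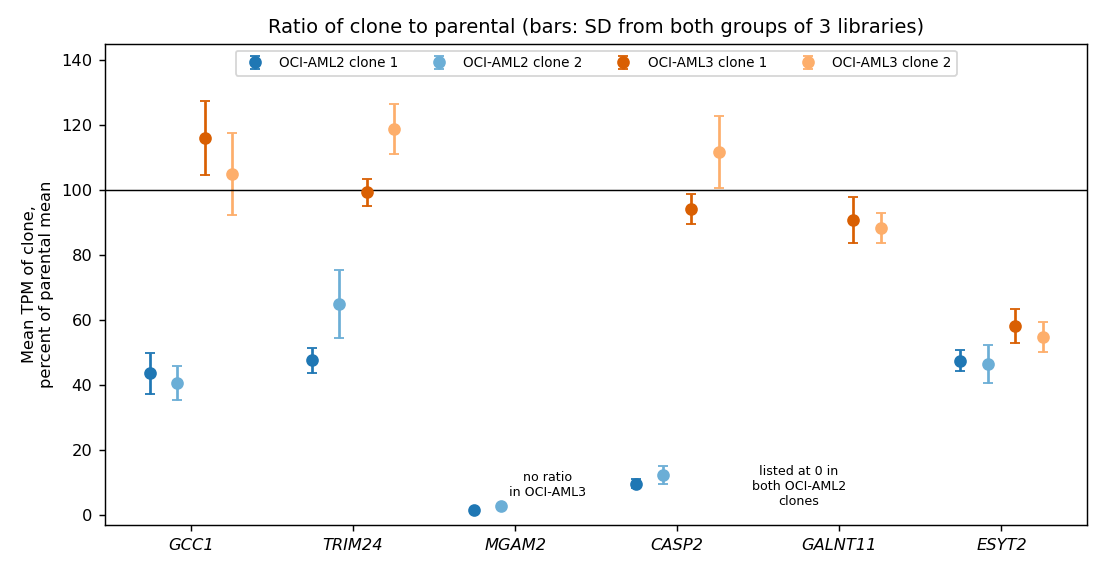
Mean TPM of each clone as a percent of the mean of its parental line, for the 5 genes and CASP2 in chromosome order. Error bars are SD from the 3 clone and 3 parental libraries, the line marks 100%, GALNT11 is listed at 0 in the OCI-AML2 clones and MGAM2 has no ratio in OCI-AML3. The OCI-AML2 points of GCC1, TRIM24 and ESYT2 lie at 40.7% to 65.0%, and in OCI-AML3 ESYT2 stands at 58.2% and 54.8% while GCC1, TRIM24 and GALNT11 stand between 88.3% and 119%.

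The parental lines were compared to place the levels before the knockout, and GALNT11 and GCC1 were called, where 90.6% of the 4413 sets were. GALNT11 was higher in OCI-AML3, at 44.1 ± 2.01 TPM against 7.72 ± 1.26 TPM in OCI-AML2 (571% ± 96.5, log2 change 2.38, SE 0.09, limma adjusted p = 1.0e-14). MGAM2 had 21.9 to 23.6 TPM in OCI-AML2 and 0 to 0.04 TPM in OCI-AML3, given without a test because it entered the fit only through its OCI-AML2 parental libraries. GCC1 was higher in OCI-AML3 (121% ± 16.8, log2 change 0.26, SE 0.09, limma adjusted p = 0.0130), a call that ended without OCI-AML2 parental replicate 1 (adjusted p = 0.0932), without OCI-AML3 parental replicate 2 (adjusted p = 0.0591) and after rescaling (log2 change 0.13, adjusted p = 0.210). The symbols of GCC1, TRIM24 and ESYT2 had been accepted on the condition that their log2 ratio between the parental lines was below 0.6, so small differences here were in part fixed by that rule. TRIM24 and ESYT2 overlapped between the lines and did not pass (log2 change -0.03 and 0.03, 95% intervals -0.21 to 0.15 and -0.13 to 0.20, limma adjusted p = 0.742 and 0.692).

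By group mean, GCC1 and GALNT11 were highest in the OCI-AML3 groups, then in OCI-AML2 parental cells and lowest in the OCI-AML2 clones. Within OCI-AML3 the libraries of neighbouring groups overlapped for both genes, and the 2 OCI-AML2 clones did so for GCC1. MGAM2 was highest in OCI-AML2 parental cells, followed by OCI-AML2 clone 2, OCI-AML2 clone 1 and the OCI-AML3 groups, which overlapped at or near 0. TRIM24 was highest in OCI-AML3 clone 2, at 38.8 ± 1.92 TPM. The next 3 groups, OCI-AML2 parental, OCI-AML3 parental and OCI-AML3 clone 1, had means of 33.4 ± 2.51, 32.6 ± 1.32 and 32.4 ± 0.264 TPM with overlapping libraries, and OCI-AML2 clones 2 and 1 followed at 21.7 ± 3.11 and 15.9 ± 0.458 TPM. ESYT2 had its parental lines on top with overlapping libraries, then the OCI-AML3 clones, which overlapped each other, then the OCI-AML2 clones, which also overlapped each other.

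The clones of OCI-AML2 were compared with each other, and 58.9% of the sets were called. GCC1, TRIM24 and ESYT2 passed the log2 ratio of 0.95 in OCI-AML2 clone 1 but neither between the parental lines nor in both OCI-AML3 clones. Their clone 1 values thus took part in the selection, and p-values of this contrast are not independent of it. TRIM24 was higher in clone 2 than in clone 1 (136% ± 19.9, log2 change 0.42, SE 0.08, limma adjusted p = 3.6e-04). MGAM2 had 0.59 to 0.67 TPM in clone 2 and 0.26 to 0.39 TPM in clone 1, all below the 1 TPM of the filter, and is given without a test. GCC1 and ESYT2 overlapped (log2 change -0.08 and -0.04, 95% intervals -0.28 to 0.11 and -0.21 to 0.13, limma adjusted p = 0.499 and 0.739), and GALNT11 was listed at 0 in both clones. The clones of OCI-AML3 differed in 0 of the 5 genes by limma at the adjusted threshold of 0.05, where 6.82% of the sets were called. At an unadjusted p below 0.05, for which no share of all sets is given, they differed in 1. That gene was TRIM24, whose clone 2 libraries all lay above those of clone 1 (log2 change 0.25, limma adjusted p = 0.0839). It passed without OCI-AML2 clone 2 replicate 1 (adjusted p = 0.0239) and in a limma fit of only the groups compared (adjusted p = 0.0468).

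The 5 genes stand in a stretch of chromosome 7 where low values in the OCI-AML2 clones were common. From GCC1 to ESYT2 in gene order the table holds 48 further genes with a settled symbol beside CASP2, and 46 of them could be tested. In OCI-AML2, 37 of the 46 were called lower in both clones and 2 higher, against 14.6% and 23.8% of all tested sets. The 37 include FAM131B, which passed the filter only through its OCI-AML2 parental libraries, and the 2 include MGAM, which passed it only through the OCI-AML2 clones. The median ratio of the 46 to parental was 45.2% in clone 1 (quartiles 42.1% and 51.0%) and 57.4% in clone 2 (quartiles 40.1% and 74.0%), against 110% and 111% over all sets. GCC1, ESYT2 and TRIM24 lay within these quartiles, and MGAM2, GALNT11 and CASP2 lay far below them. Of the 46, 36 passed the log2 ratio of 0.95 in OCI-AML2 clone 1, as did GCC1, ESYT2 and TRIM24. The table's selection therefore in part fixed the clone 1 quartiles and the place of these 3 genes within them. In bulk libraries fewer cells that express a gene and less RNA per cell cannot be told apart.

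**Figure D3:**
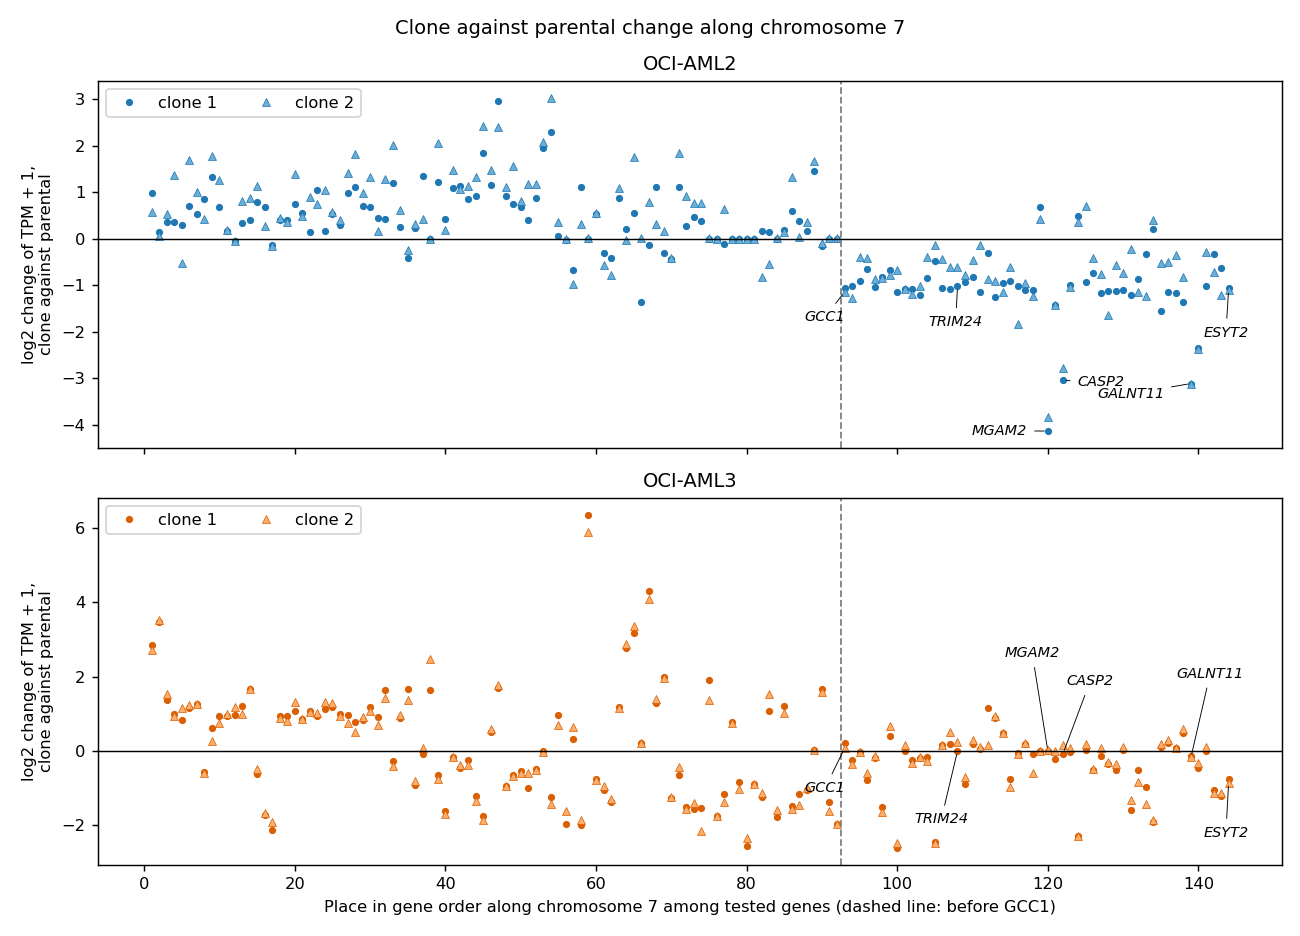
Change in log2(TPM + 1) of each clone against its parental line for the 144 tested genes of chromosome 7 with a settled symbol, in gene order, with circles for clone 1 and triangles for clone 2. The dashed line stands before GCC1, and places are ranks, not distances. To its right most OCI-AML2 points lie near the list's medians of -1.02 in clone 1 and -0.75 in clone 2, while the OCI-AML3 points lie on both sides of 0. The value plotted for GALNT11 in OCI-AML2, listed at 0 in the clones, is set by the pseudocount.

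The rest of the chromosome did not share this pattern in OCI-AML2. Of 84 tested genes before CUX1, 4 were called lower in both clones and 51 higher, with median ratios of 151% and 206%. Of 8 tested genes from CUX1 up to GCC1, 0 were called lower in both clones by limma, also 0 at an unadjusted p below 0.05. Called higher were 2, GPR85 and TFEC, named after their values were seen, and TFEC passed the filter only through the OCI-AML2 clones. On other chromosomes 310 of 1916 settled genes were called lower in both clones and 535 higher. The table's selection for a change in OCI-AML2 clone 1 bears on such counts, so the list was also limited to genes that passed the log2 ratio of 0.95 in both OCI-AML3 clones, a limit added after the data had been seen. Of 11 such distal genes 6 were called lower in both OCI-AML2 clones and 1 higher, TCAF1, with median ratios of 60.8% and 60.3%, against 178 of 1412 lower (12.6%) and median ratios of 114% and 108% for genes of other chromosomes under the same limit.

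In the OCI-AML3 clones the same 46 genes gave 19 called lower in both and 6 higher, against 38.3% and 28.7% of all sets, and their median ratios were 88.2% and 90.6% of parental. After rescaling by medians of ratios 13 were called higher. SND1, the neighbour that follows GCC1 in the list, was called lower in both clones of both lines, at 49.0% and 40.8% in OCI-AML2 and 84.9% and 77.8% in OCI-AML3. Between the OCI-AML2 clones, 22 of the 46 were called higher in clone 2 and 7 lower, beside TRIM24, where all sets divided into 29.9% higher and 29% lower. Of the 46, 36 had passed the log2 ratio of 0.95 in OCI-AML2 clone 1, so the table's selection in part fixed this division. Between the OCI-AML3 clones 0 were called higher by limma and 1 lower, MRPS33, where 3.94% and 2.88% of all sets were called. At an unadjusted p below 0.05 the counts were 5 higher and 5 lower, and no share of all sets is given at that threshold. In OCI-AML3 parental cells 35 of the 46 were called higher than in OCI-AML2 parental cells and 8 lower, against 47.2% and 43.4% of all sets.

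Among the neighbours, the gene with the lowest ratio in OCI-AML2 was KMT2C, which encodes a histone H3 lysine 4 methyltransferase and follows GALNT11 in the list. It was at 7.06 ± 0.300 TPM in OCI-AML2 parental cells and at 0.587 ± 0.0115 and 0.563 ± 0.102 TPM in the clones, 8.31% and 7.98% of parental. In OCI-AML3 it stood at 71.5% and 78.0% of parental (limma adjusted p = 5.5e-06 and 1.5e-04). FAM131B, named after its values were seen, was nearly as low in OCI-AML2, at 10.8% and 8.51% of a parental level of only 1.29 TPM. By mean change in log2(TPM + 1) over both clones, the next 7 genes below parental after KMT2C were KDM7A, a histone demethylase, GSTK1, a glutathione transferase, ZNF783, MRPS33, a protein of the mitochondrial ribosome, SND1, UBE2H, a ubiquitin-conjugating enzyme, and TMEM209. Of these, KDM7A stood at 41.5% and 17.4%, GSTK1 at 37.2% and 36.8% and ZNF783 at 42.8% and 27.6% of parental, and MRPS33, SND1, UBE2H and TMEM209 lay between 40.0% and 49.0%. Ratios order the genes differently, since the added 1 TPM shrinks the change of low genes: CCDC136, at 37.5% and 36.4%, and ATP6V1FNB, at 38.6% and 31.6%, both named after their values were seen, had lower ratios than SND1, UBE2H and TMEM209.

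The exceptions lay among the same genes. Called higher in both OCI-AML2 clones were MGAM, which passed the filter only through these clones, and TCAF1, which stood at 158% and 140% of parental. The other 7 of the 46 that were not called in the same direction in both were LUC7L2, C7orf55-LUC7L2, PODXL, EZH2, ATP6V0E2, GIMAP2 and GIMAP5, of which those outside the lists of named genes are given by name after their values were seen. EZH2, the catalytic subunit of the Polycomb repressive complex 2, was lower in clone 1, at 48.6%, and higher in clone 2, at 169% of parental (limma adjusted p = 2.9e-07 and 4.9e-06). LUC7L2, a splicing factor, was at 44.6% in clone 1 and 91.0% in clone 2. LUC7L2 overlaps the read-through gene C7orf55-LUC7L2, so their reads can be exchanged. GIMAP5, a GTPase of lymphocytes, was below 1 TPM on average in all OCI-AML2 groups, at 0.427, 0.697 and 0.913 TPM.

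Of 20 genes of chromosome 7 fixed as a list for their interest in myeloid leukaemia, 6 were measured under a settled symbol. In OCI-AML2, 2 were called lower in both clones, KMT2C and BRAF, and 2 higher, SAMD9 and CDK6, where 14.6% and 23.8% of all sets were, with EZH2 and LUC7L2 the remaining 2. BRAF, a kinase of the MAP kinase pathway that lies between TRIM24 and MGAM2, was at 42.6% and 48.0% of parental, close to GCC1, and in OCI-AML3 it passed as higher at 116% and 117% (limma adjusted p = 0.0330 and 0.0181). SAMD9, an interferon-regulated growth suppressor, and CDK6, a cell cycle kinase, lie before CUX1. SAMD9 was at 134% and 181% of parental in OCI-AML2 and at 31.7% and 18.9% in OCI-AML3, and CDK6 at 140% and 173% in OCI-AML2 and at 32.7% and 37.1% in OCI-AML3.

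The relatives of the 5 genes in their own pathways were mostly without a settled symbol. Of 7 golgins and GRIP proteins 1 was measured, RGPD5, a gene of a family of near-identical copies, which was below 1 TPM in OCI-AML2 and passed as higher in OCI-AML3. Of 8 TRIM24 relatives and genes of the p53 axis 2 were measured, and both passed as higher in both OCI-AML3 clones, as 28.7% of all sets did. Neither was called in 1 direction in both OCI-AML2 clones, where 23.8% of the sets were higher and 14.6% lower, and the difference between the lines was not tested. MDM4, an inhibitor of p53, stood at 16.0 ± 0.894 TPM in OCI-AML3 parental cells and at 34.0 ± 0.930 and 33.6 ± 2.67 TPM in the clones (limma adjusted p = 9.7e-10 and 1.3e-09). CDKN1A, a cell cycle inhibitor induced by p53, stood at 75.6 ± 9.15 TPM there and at 288 ± 15.2 and 344 ± 13.9 TPM in the clones (limma adjusted p = 1.1e-10 and 2.0e-11). In OCI-AML2 it was at 80.4% in clone 1 and 198% in clone 2. RGPD5, MDM4 and CDKN1A passed the table's selection through their change in both OCI-AML3 clones, MDM4 through no other comparison of that selection. Their OCI-AML3 calls and p-values are therefore not independent of the selection.

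Of 22 GalNAc-transferases and partners of GALNT11, 4 were measured, and 2 were called higher in both OCI-AML2 clones and 0 lower in both by limma, where 23.8% and 14.6% of all sets were. The counts were also 2 and 0 at an unadjusted p below 0.05, for which no share of all sets is given. GALNT3 stood at 2.59 ± 0.255 TPM in OCI-AML2 parental cells and at 5.88 ± 0.860 and 6.91 ± 1.14 TPM in the clones (limma adjusted p = 1.1e-06 and 6.3e-08). C1GALT1, which extends the first sugar into the core 1 glycan, stood at 8.72 ± 1.06 TPM and at 18.2 ± 2.43 and 25.3 ± 5.04 TPM (limma adjusted p = 3.3e-06 and 1.9e-08). GALNT6 was lower in clone 2 alone, at 67.3% of parental, and GALNT12 was under 0.2 TPM in OCI-AML2. In OCI-AML3 GALNT6 passed as lower in both clones and C1GALT1 as higher, where 38.3% and 28.7% of all sets did. GALNT6 passed the table's selection only through its change in both OCI-AML3 clones, so that call is not independent of the selection. GALNT3 had at most 0.83 TPM in OCI-AML3 parental libraries and means of 0.08 and 0.15 TPM in the clones. It is given there without a test, since all its OCI-AML3 libraries were below the 1 TPM of the filter. GALNT12 stood at 5.34 ± 0.733 TPM in OCI-AML3 parental cells and at 1.10 ± 0.560 and 0.730 ± 0.159 TPM in the clones. These values are given without a test because GALNT12 passed the filter only with its OCI-AML3 parental libraries.

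Of 10 contact-site tethers 2 were measured beside ESYT2. EFR3A, which anchors a phosphatidylinositol kinase at the plasma membrane, was at 42.5% and 54.5% of parental in OCI-AML2 and at 121% and 115% in OCI-AML3. ESYT3, the third extended synaptotagmin, was under 1 TPM in OCI-AML2 libraries, and in OCI-AML3 it stood at 28.4% and 44.6% of a parental level of 2.00 ± 0.469 TPM, given without a test because it passed the filter only with its OCI-AML3 parental libraries.

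Over the 18 libraries, the pattern of each gene was set beside 2083 other settled genes by Pearson's r of log2(TPM + 1), as a description, since the points share the 6 groups and the same parental libraries. GCC1 was most like BRAF (r = 0.981), ZFP92 (r = 0.980) and FBXO31 (r = 0.977). TRIM24 was most like MTRR (r = 0.958), ANKRD11 (r = 0.957) and FRMD4A (r = 0.955). MGAM2 was most like APBA1 (r = 0.980), MAST4 (r = 0.979) and SREK1IP1 (r = 0.967). GALNT11 was most like ZFP92 (r = 0.996), its neighbour KMT2C (r = 0.994) and DLX1 (r = 0.992), and ESYT2 most like COCH (r = 0.982), HIVEP2 (r = 0.944) and CHRD (r = 0.934). Among the 20 most alike genes, 10 lay on distal 7q for GCC1, 10 for TRIM24, 8 for GALNT11, 1 for MGAM2 and 1 for ESYT2. Distal 7q holds 52 tested genes with a settled symbol, the 5 genes and CASP2 included. The r uses the OCI-AML2 libraries that chose the 5 genes. Likeness to distal genes that are low in the OCI-AML2 clones was therefore in part fixed by that choice. Among the 5 genes, GCC1 and GALNT11 had the highest r, 0.973, and MGAM2 had r between -0.17 and 0.50 with the other 4.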

How the data were processed

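The authors deposited a table of TPM for 18 RNA-seq libraries, in 6 groups of 3 taken from the sample titles, per the labels, with library preparation by BGI Americas. The sources used here do not give the aligner, the counter, the build or the annotation, so the files' coordinates are not used, and TPM keeps no depth. RefSeq (GRCh38.p14) supplied gene names, gene order and promoters. All value columns matched a sample.

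The table has 6999 lines with 4816 symbols but 5069 distinct sets of values, each counted once. Repeats of a set differ in the order of the OCI-AML3 clone 1 replicates. Symbols were taken as settled for repeats under 1 symbol (413), for the line reading a, b, c whose twin reads b, c, a (1076), for both reasons (158), and for single lines whose parental log2 ratio was below 0.6 (673). Thus 2320 sets had a settled symbol, 2293 of them matched RefSeq, and 2749 stayed unnamed but entered all fits. GCC1, TRIM24, ESYT2 and CASP2 were settled as single lines, MGAM2 as a repeat and GALNT11 by replicate order. The offset of 0.01 TPM in the single-line ratio was set after conflicting symbols had been seen, so the 0 conflicts left are no independent check.

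Groups were compared on log2(TPM + 1) by limma 3.58.1 (R 4.3.3). All 18 libraries entered the fit of group means, empirical Bayes used an intensity trend, and 4413 sets reached 1 TPM in at least 3 libraries and were tested. The filter was passed by all 5 genes, GCC1, TRIM24 and ESYT2 in all 18 libraries, GALNT11 in 12 and MGAM2 in 3. Tests were two-sided, adjusted by Benjamini-Hochberg with a threshold of 0.05, and called in a line when both clones passed in 1 direction. Changes on this scale understate those of low genes, and percentages are ratios of mean TPM. The fit was tested on simulated data. Alternatives were another pseudocount (0.1), filters, rescaling by medians of ratios, a replicate block, fits of only the groups compared, no trend, symbols as printed and leaving out each library.

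The 5 genes, the gene lists and the tests were chosen with earlier results of these data known. Named genes are the 5, CASP2, the 8 lowest and 4 highest of the distal list in OCI-AML2, all measured genes of the lists of relatives and myeloid genes, and the 3 genes most alike to each of the 5.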

Additional observations from a re-analysis of the deposited data

How the results depend on the processing

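ESYT2 was called lower in both OCI-AML3 clones, GALNT11 differed between the parental lines, and TRIM24 differed between the OCI-AML2 clones under every alternative run. The TRIM24 contrast is not independent of the selection, which used its OCI-AML2 clone 1 values. The replicate numbers did not pair the libraries, since in no comparison were all 3 correlations of same-numbered deviations above 0.1. The replicate block left all 53 results with the same direction and call, for example 1 and 2 of the 5 genes called in OCI-AML3 clones 1 and 2 and 37 distal genes lower in OCI-AML2, as did no filter on low values and no intensity trend for the same 53. For each value below that moved, the cause was not tested unless the setting itself removes genes or samples.

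Rescaling by medians of ratios shifted the median of all sets by less than 0.1 on the log2 scale. Single genes could move more: in OCI-AML3 clone 1 GCC1 went from 0.20 to 0.34 and CASP2 from -0.08 to 0.06. The rescaling gave 2 calls among the 5 genes in OCI-AML3 clone 1, 0.32 for CASP2 in OCI-AML3 clone 2, 43.8% for ESYT2 in OCI-AML2 clone 1, 13 distal genes higher in OCI-AML3 and a distal median there of -0.00385. Sign changes of values that passed under neither setting were 0.14 for TRIM24, 0.011 for GALNT11 and 0.0624 for CASP2 in OCI-AML3 clone 1, -0.11 for ESYT2 between the parental lines and 0.0509 for ESYT2 between the OCI-AML2 clones. Pseudocount 0.1 gave 166 calls between the OCI-AML3 clones against 301, a distal median of -1.004 in OCI-AML2 and 1 gene from CUX1 to GCC1 lower there. Fitting only the groups compared gave 155 calls between the OCI-AML3 clones, 2 among the 5 genes in OCI-AML3 clone 1 and 1 between the OCI-AML3 clones. At least 5 TPM in 3 libraries left 1 distal gene and 1 gene from CUX1 to GCC1 higher in OCI-AML2 and 3 of the latter lower in OCI-AML3.

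Taking symbols as printed replaced the values of MGAM2 and GALNT11. It gave 73.8% and 63.9% of parental for MGAM2 and 133% and 167% for GALNT11 in OCI-AML2, 3 and 4 calls among the 5 genes in OCI-AML3 clones 1 and 2, and 1 between these clones. MGAM2 then stood at 0.77 in OCI-AML3 clone 1, at -0.21 between the OCI-AML2 clones and at -0.0853 between the OCI-AML3 clones, and GALNT11 at 0.25 between the OCI-AML3 clones. Distal genes then numbered 8 higher in OCI-AML2 (median -0.68) and 37 lower and 12 higher in OCI-AML3. Genes before CUX1 numbered 16 lower in OCI-AML2 and 65 lower and 72 higher in OCI-AML3. From CUX1 to GCC1 there were 5 lower and 8 higher in OCI-AML2 and 11 lower and 5 higher in OCI-AML3. Of limits added after the data had been seen, genes past 0.95 in both OCI-AML3 clones gave 6 distal genes lower and 1 higher in OCI-AML2, genes past 0.95 in OCI-AML2 clone 1 gave 12 lower in OCI-AML3 (median -0.0159), and leaving out KMT2C, LUC7L2, C7orf55-LUC7L2 and MGAM gave 1 higher in OCI-AML2.

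Leaving out each of the 18 libraries in turn gave 102 to 370 calls between the OCI-AML3 clones, 1 to 2 and 1 to 3 calls among the 5 genes in OCI-AML3 clones 1 and 2, and 0 to 1 between those clones. Values that passed in none of these fits and changed sign ranged in OCI-AML3 clone 1 from -0.0345 to 0.0213 for TRIM24 and -0.0189 to 0.00952 for MGAM2, and in clone 2 from -0.0189 to 0.028 for MGAM2. Between the parental lines they ranged from -0.0607 to 0.0298 for TRIM24 and -0.00734 to 0.0949 for ESYT2. Between the OCI-AML2 clones ESYT2 ranged from -0.129 to 0.0225, and between the OCI-AML3 clones MGAM2 from -0.00952 to 0.0325 and GALNT11 from -0.0702 to 0.0121. TPM without read counts leaves the precision of the low values of MGAM2 and GALNT11 unknown.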
